A study of Mus musculus with 5 samples.

Results

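The 9 genes described here encode scaffold proteins and a kinase of the postsynaptic density: the membrane-associated guanylate kinases Dlg1, Dlg2, Dlg3 and Dlg4, the Shank proteins Shank1, Shank2 and Shank3, and the alpha and beta subunits of calcium/calmodulin-dependent protein kinase II, Camk2a and Camk2b. They were taken by symbol from the gene expression rows of each library, 9 of 32285 genes, and each symbol had 1 row. The study measured RNA and open chromatin in the same nuclei (10x Multiome) of mouse hippocampus, with 1 library per genotype. The genotypes were wild type, 5xFAD (a transgenic mouse that makes human amyloid precursor protein and presenilin carrying familial Alzheimer mutations), and 3 lines that add to 5xFAD a knockout of monoacylglycerol lipase (MAGL, gene Mgll, which degrades the endocannabinoid 2-arachidonoylglycerol). The knockout is labelled as astrocyte specific, neuron specific or global. The title names cognitive rescue by the astrocytic knockout as the subject. The sources used here give no age, no driver of the cell-specific knockouts and no number of animals per library, and 1 batch name covers all 5. Where 5 values stand in a row, they belong to wild type, 5xFAD, astrocyte MAGL-KO, neuron MAGL-KO and global MAGL-KO, in that order.

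At an excitatory synapse, the Dlg proteins bind glutamate receptors and adhesion molecules through PDZ domains and hold them opposite the release site. Dlg4 (PSD-95) is the most studied of them, Dlg2 is PSD-93, Dlg1 is SAP97 and Dlg3 is SAP102. Shank proteins lie deeper in the density and connect the Dlg layer, through guanylate kinase-associated proteins, with Homer and the actin skeleton. Camk2a and Camk2b form the holoenzyme that calcium entry through NMDA receptors activates during long-term potentiation in the hippocampus, and the beta subunit also binds actin.

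Each library held 4050 to 7498 nuclei and 101931020 to 159532813 unique molecular identifiers (UMIs, counts of single RNA molecules), and 3917 to 7031 nuclei were used. Nuclei were clustered without the 9 genes, and 8 neuron subtypes were named after marker genes: dentate granule-like, CA1 pyramidal-like, CA3 pyramidal-like, subicular-like, cortical-type neurons with Rorb and Cux2, deep-layer neurons with Foxp2 and Hs3st4, and inhibitory neurons of the Lhx6 and Sst and of the Adarb2 and Vip lineages. All excitatory-like nuclei were also summed as 1 class, called excitatory neurons here, which includes the 15.2 to 22.6% of them in no named subtype. Classes with cortical markers were thus present although the labelled tissue is hippocampus. The knockout labels could not be checked from RNA. Mgll was at 72.5, 73.7, 91.2, 93.3 and 80.0 CPM (UMIs of a gene per 1000000 UMIs) in excitatory neurons and at 269.6, 211.9, 189.0, 150.0 and 153.7 CPM in astrocyte-like nuclei (99 to 188 UMIs), and counts that include undeleted parts of a gene do not report a deletion. Each such library is therefore named by its label, as the astrocyte-labelled, neuron-labelled or global-labelled library, and its comparison with 5xFAD is called the astrocyte, neuron or global comparison. Both sexes were present in every library: nuclei with Xist and without Y-linked UMIs were 57.4, 41.5, 57.6, 80.5 and 56.7% of the sexed excitatory nuclei. Nuclei that held both signals were 10.6 to 15.1% of a library, 4.21% of dentate granule-like and 32.8% of Lhx6 lineage nuclei. Pairs of libraries shared 29 to 63 cell barcodes. A dentate cluster made up 1.90 and 1.47% of dentate granule-like nuclei in wild type and 5xFAD and 22.4, 26.2 and 32.9% in the other 3 libraries. The part of sex, mixed nuclei and that cluster in the results below was not tested, beyond the values given without them.

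The 9 genes had different orders of neuron subtypes. For 7 of the 9 genes the same subtype was highest in all 5 libraries, while this held for 30.5% of the 8962 genes compared, and the exceptions were Shank2 and Camk2a. The genes compared needed at least 100 UMIs in each subtype over the 5 libraries together. They were not matched to the 9 genes in depth, so the share does not show that such stability is particular to the 9 genes. Levels are CPM, relative to all UMIs of that subtype in that library, and Poisson intervals are exact 95% intervals that cover counting error only. In excitatory neurons the median level per kilobase of gene was highest for Camk2a, at 10.4 CPM per kb, followed by Dlg2 (3.69), Camk2b (2.59), Dlg4 (2.45), Dlg1 (1.86), Shank1 (1.84), Shank3 (1.04), Dlg3 (0.728) and Shank2 (0.541). Nuclear RNA contains introns, so the undivided CPM of a long gene such as Dlg2 is not a rank of its mRNA. For reference, in oligodendrocyte-like nuclei Shank3 was at 0.968 to 4.86 CPM, Shank1 at 0.968 to 8.90, Shank2 at 3.87 to 11.9, Dlg4 at 7.75 to 14.8, Camk2b at 8.72 to 17.8, Dlg3 at 10.7 to 24.7 and Camk2a at 10.7 to 39.6 CPM. These were below every neuron subtype of the same genes. Astrocyte-like nuclei held 267 to 342 CPM of Camk2a beside 71.1 to 157 CPM of the glutamatergic neuron gene Slc17a7, and the share of neuronal RNA in them was not tested.

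**Figure D1:**
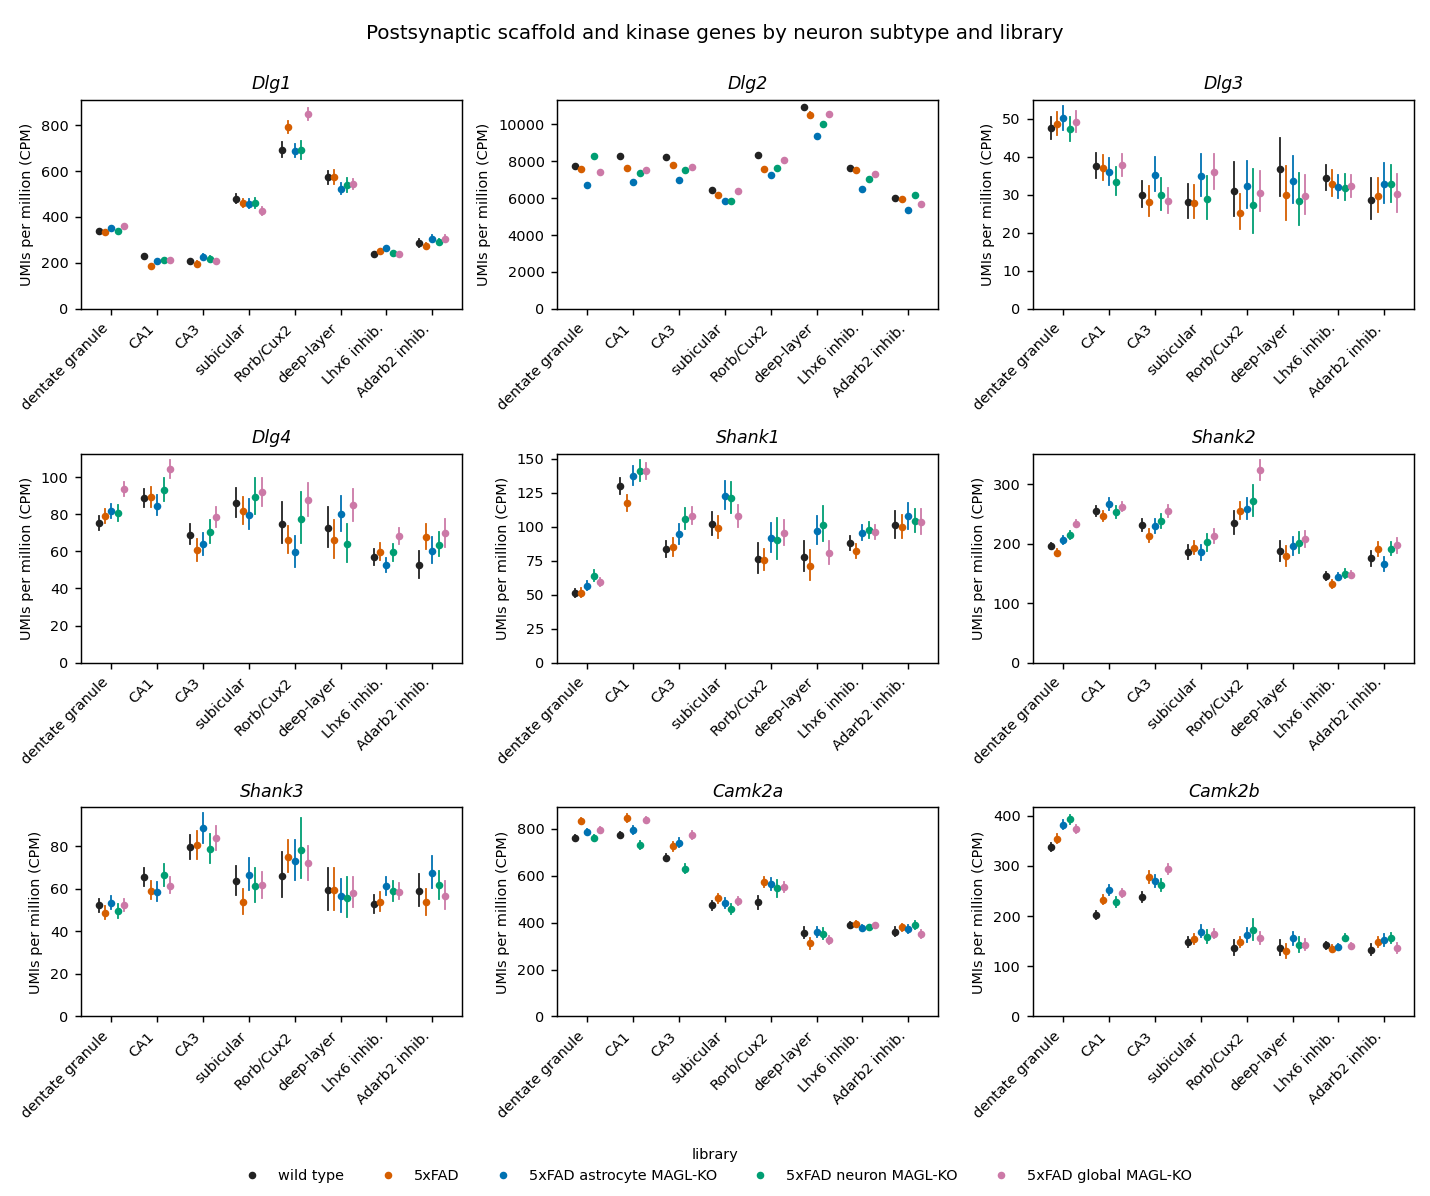
Level of each of the 9 genes (1 panel each, vertical axis in CPM from 0) in the 8 neuron subtypes, with 1 point per library and bars for the exact 95% Poisson interval. For 7 of the 9 genes the highest subtype is the same in all 5 libraries, such as Rorb and Cux2 cortical-type neurons for Dlg1 and dentate granule-like neurons for Camk2b.

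Among the Dlg genes, Dlg1 (chr16:31663443-31875129, forward strand, mm10) had the steepest order of subtypes. In Rorb and Cux2 cortical-type neurons it stood at 692.8, 791.3, 688.8, 690.7 and 848.1 CPM, from 1109 to 3914 UMIs. The deep-layer neurons followed with 523 to 572 CPM, then subicular-like (426 to 480), dentate granule-like (333 to 361), Adarb2 lineage (274 to 305) and Lhx6 lineage neurons (239 to 264), each range apart from the next. CA1-like (186 to 231) and CA3-like neurons (197 to 227) were lowest and overlapped. Within a library the highest subtype held 3.23 to 4.25 times the lowest. Oligodendrocyte-like nuclei exceeded all neurons, with 1172, 1263, 1009, 1138 and 1255 CPM.

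In chromatin, oligodendrocyte-like nuclei exceeded neurons at the first annotated start of Dlg1 and lay below them at the second. Accessibility was counted as transposase cut sites in peaks within 1 kb of a start and given as cut-site CPM, per 1000000 cut sites in peaks of the same nuclei, and start groups are numbered from the 5′ end of the gene. Nuclei with more of their cut sites over annotated starts score higher on this scale. In wild type such peaks held 1459015 of 2437177 cut sites in oligodendrocyte-like nuclei. They held 728079 of 1697727 in deep-layer and 3763873 of 11357743 in CA1-like neurons. The values are not corrected for this share. At the first start, oligodendrocyte-like nuclei held 83.3, 80.9, 61.6, 68.1 and 77.1 cut-site CPM, and no neuron subtype exceeded 30.4. At the second start, at position 31754350, oligodendrocyte-like nuclei held 1.64 to 4.26 cut-site CPM, from 2 to 9 cut sites, and were below every neuron subtype of their library (3.15 to 17.7 over all). The first start had the most cut sites of the Dlg1 starts in neurons too. Peaks were called separately in each library. Orders said to hold in every library compare nuclei of the same library. Ranges and medians over the 5 libraries, and overlaps between such ranges, can also hold differences between the peaks of the libraries. The 250 bases before these starts, from RefSeq on GRCm38.p6, are shown because these starts carry the contrast. Capitals mark matches on either strand to the GC box GGGCGG (held by 32.7% of 32851 promoters of that length), the TATA box TATAAA (12.4%), the E box CACGTG (6.02%), the core TGACG of the cAMP response element (17.8%) or the CCAAT box (33.8%).
Dlg1 first start, inner entry, chr16:31663685-31663934, forward strand: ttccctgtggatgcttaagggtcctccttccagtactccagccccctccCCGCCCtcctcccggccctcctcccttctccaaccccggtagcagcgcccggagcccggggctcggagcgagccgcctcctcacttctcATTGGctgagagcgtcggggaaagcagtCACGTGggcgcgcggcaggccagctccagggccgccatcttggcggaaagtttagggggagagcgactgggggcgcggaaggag
Dlg1 second start, chr16:31754100-31754349, forward strand: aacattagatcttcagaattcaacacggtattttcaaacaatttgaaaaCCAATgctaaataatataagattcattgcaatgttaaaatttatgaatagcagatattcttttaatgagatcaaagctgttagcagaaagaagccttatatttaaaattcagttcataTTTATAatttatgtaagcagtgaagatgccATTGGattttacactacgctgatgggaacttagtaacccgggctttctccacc
The sequence shown for the first start is 68.8% G or C, with 1 GC box, 1 E box and 1 CCAAT box match. RefSeq has another entry at that start, which ends at the 5′ end of the gene (chr16:31663193-31663442) and is 46% G or C, with 1 GC box, 1 E box and 0 CCAAT box matches. The sequence at the second start is 30.8% G or C, with 1 TATA box and 2 CCAAT box matches. The median over all promoters is 52.4%, and the 2 entries of the first start lie on either side of it. A match describes the letters and is not a binding site.

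Dlg2 (chr7:90476672-92449247, forward strand) was highest in deep-layer neurons, at 10917, 10529, 9344, 10022 and 10588 CPM. This lay above every other subtype in every library, and the others ranged from 5354 to 8343 CPM with mostly overlapping neighbours. Adarb2 lineage neurons (5354 to 6172) and subicular-like neurons (5834 to 6420) were lowest. Oligodendrocyte-like nuclei still held 1622 to 1843 CPM. Their accessibility at the first Dlg2 start, 100.9, 97.4, 94.2, 94.2 and 99.8 cut-site CPM, exceeded every neuron subtype, which held 34.9 to 64.1. At the second start, at positions 91090706 to 91090728, they held at most 1.71 cut-site CPM (3 cut sites), below the 3.97 to 24.1 of the neurons. At the third start their 2.10 to 5.71 cut-site CPM overlapped with subicular-like (4.49 to 8.61) and deep-layer neurons (2.95 to 18.7). The RefSeq entry that spans the second start is shown as another start that is low in oligodendrocyte-like nuclei. It runs on past these positions.
Dlg2 across the second start, chr7:91090536-91090785, forward strand: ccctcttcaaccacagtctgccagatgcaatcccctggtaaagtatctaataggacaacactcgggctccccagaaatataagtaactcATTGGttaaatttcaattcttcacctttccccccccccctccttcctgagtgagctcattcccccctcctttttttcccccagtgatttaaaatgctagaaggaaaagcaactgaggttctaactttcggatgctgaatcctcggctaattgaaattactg
This entry is 45.2% G or C and holds 1 CCAAT box match.

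Dlg3 (chrX:100767722-100818410, forward strand), the Dlg protein best known from young synapses, was highest in dentate granule-like neurons, at 47.5, 48.7, 50.1, 47.2 and 49.2 CPM. The other 7 subtypes lay between 25.3 and 37.7 CPM, and neighbours in their order overlapped. Dlg4 (chr11:70016942-70047522, forward strand) was highest in CA1-like neurons in every library, at 88.6, 89.2, 84.6, 93.0 and 104.4 CPM. Subicular-like (79.7 to 91.7) and dentate granule-like neurons (75.2 to 93.4) overlapped with that range, and the Lhx6 (52.4 to 68.1) and Adarb2 lineages (52.5 to 69.7) had the lowest medians. CA3-like (60.5 to 78.5), Rorb and Cux2 cortical-type (59.4 to 87.5) and deep-layer neurons (63.8 to 84.7) overlapped with both lineages. Within a library its highest subtype held at most 1.69 times its lowest. Of its 5 annotated start groups, the most 3′ one carried most cut sites in neurons, with 17.5 to 47.7 cut-site CPM against 3.31 to 16.3 in oligodendrocyte-like nuclei.

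The 3 Shank genes each had another highest subtype. Shank1 (chr7:44310253-44360572, forward strand) stood at 129.9, 117.4, 137.5, 141.3 and 141.1 CPM in CA1-like neurons. Dentate granule-like neurons were lowest, at 51.1, 51.5, 56.4, 64.1 and 59.5 CPM, apart from all other subtypes (71.3 to 123 CPM outside CA1). The second Shank1 start showed a similar contrast, with 30.6, 30.1, 31.0, 26.5 and 35.8 cut-site CPM in CA1-like and 16.6, 13.0, 16.6, 13.6 and 16.7 in dentate granule-like neurons. CA3-like neurons, at 14.8 to 22.9, overlapped with the dentate values. Shank1 made up 17.1 to 19.6% of the UMIs of the 3 Shank genes in dentate granule-like neurons and 27.7 to 30.7% in CA1-like neurons.

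Shank2 (chr7:144001928-144424494, forward strand) was highest in Rorb and Cux2 cortical-type neurons in 3 libraries and in CA1-like neurons in the other 2. The cortical-type values were 234.9, 255.6, 258.7, 272.2 and 323.8 CPM, overlapping with 247 to 267 CPM in CA1-like neurons. Lhx6 lineage neurons, at 132 to 150 CPM, lay below all others. Chromatin separated its starts by subtype: the third start had 10.1, 10.2, 11.5, 10.7 and 9.38 cut-site CPM in dentate granule-like neurons, the lowest of 8 subtypes in every library, and 28.3, 40.9, 36.8, 50.0 and 39.2 in deep-layer neurons. At the fourth start the ranges of the same 2 subtypes over the 5 libraries overlapped, at 18.9 to 22.7 and 17.7 to 33.1, and their order within each library is not given.

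Shank3 (chr15:89499623-89560261, forward strand), a gene whose loss is linked to Phelan-McDermid syndrome in humans, was highest in CA3-like neurons, at 79.6, 80.6, 88.6, 78.8 and 83.8 CPM. Rorb and Cux2 cortical-type neurons followed with 66.2 to 78.5 CPM, and dentate granule-like neurons were lowest in every library with 48.8 to 53.5, a range that overlapped with Lhx6 lineage neurons (52.8 to 61.3). RNA and accessibility did not rank the subtypes alike. At the start with most cut sites, CA3-like neurons were the most accessible subtype for 0.434% of all genes compared and deep-layer neurons for 36.5%. The third Shank3 start, inside the gene, was least accessible in CA3-like neurons in every library, at 8.22, 7.97, 7.77, 9.50 and 8.99 cut-site CPM, against 34.8, 40.3, 34.9, 42.8 and 35.9 in deep-layer neurons. At the first start CA3-like neurons had 39.8 to 47.9 cut-site CPM and dentate granule-like neurons 61.6 to 67.4. The sequence before the first start is shown as the most G and C rich of the 14 entries found for 6 of the 9 genes.
Shank3 first start, chr15:89499358-89499607, forward strand: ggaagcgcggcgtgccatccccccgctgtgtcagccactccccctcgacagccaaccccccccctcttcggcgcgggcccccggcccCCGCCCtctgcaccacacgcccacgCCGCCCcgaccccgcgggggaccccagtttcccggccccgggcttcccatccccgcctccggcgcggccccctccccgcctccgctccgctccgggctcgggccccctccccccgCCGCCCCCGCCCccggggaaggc
It is 82.4% G or C and holds 4 GC box matches.

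The kinase subunits were highest in CA1-like and dentate granule-like neurons. Camk2a stood at 773.3, 846.0, 794.5, 730.9 and 836.6 CPM in CA1-like neurons and at 762.2, 831.6, 785.7, 758.5 and 794.6 in dentate granule-like neurons. CA1-like neurons were higher in 4 libraries and dentate granule-like neurons in the library labelled neuron MAGL-KO. CA3-like neurons (629 to 774) came next and overlapped with both, then Rorb and Cux2 cortical-type (486 to 571), subicular-like (457 to 503), Lhx6 lineage (377 to 395), Adarb2 lineage (352 to 389) and deep-layer neurons (311 to 360). From the cortical-type range on, neighbours overlapped except subicular-like and Lhx6 lineage neurons. Camk2a protein is known mainly from excitatory neurons. The inhibitory nuclei also held Slc17a7, at 82.9 to 135 CPM in the Lhx6 and 72.2 to 131 CPM in the Adarb2 lineage against 133 to 309 CPM in the excitatory subtypes, and 26.6 to 32.8% of them carried UMIs of both sexes. The part of free RNA and doublets in the inhibitory level was not tested.

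Camk2b (chr11:5969644-6066362, reverse strand) was highest in dentate granule-like neurons, at 337.3, 354.5, 381.9, 392.8 and 373.6 CPM. CA3-like (238 to 294) and CA1-like neurons (202 to 252) followed, and the other 5 subtypes lay between 130 and 172 CPM with overlapping ranges. The number of Camk2a UMIs per Camk2b UMI was lowest in dentate granule-like neurons, at 1.93 to 2.35, and 3.16 to 3.82 in CA1-like and 3.17 to 3.85 in Rorb and Cux2 cortical-type neurons, with no overlap between dentate and either. Deep-layer neurons, at 2.28 to 2.60, overlapped with the dentate range, and the other 4 subtypes lay between 2.41 and 3.26. The single Camk2b start did not follow this order: it held 40.7 to 43.4 cut-site CPM in dentate granule-like neurons, inside the 30.9 to 68.7 of the other subtypes. Both kinase starts were nearly closed in oligodendrocyte-like nuclei, at no more than 2.36 cut-site CPM for Camk2a and 5.71 for Camk2b. The Camk2b sequence is shown as a start open in all 8 neuron subtypes and nearly closed in that glial class.
Camk2b start, chr11:6065749-6065998, reverse strand: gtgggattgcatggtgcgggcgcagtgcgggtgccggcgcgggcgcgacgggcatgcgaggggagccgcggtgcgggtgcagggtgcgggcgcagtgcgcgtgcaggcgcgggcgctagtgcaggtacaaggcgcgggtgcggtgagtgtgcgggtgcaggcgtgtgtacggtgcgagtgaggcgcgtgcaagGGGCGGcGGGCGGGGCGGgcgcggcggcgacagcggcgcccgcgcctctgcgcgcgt
It is 78.4% G or C and holds 3 GC box matches.

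**Figure D2:**
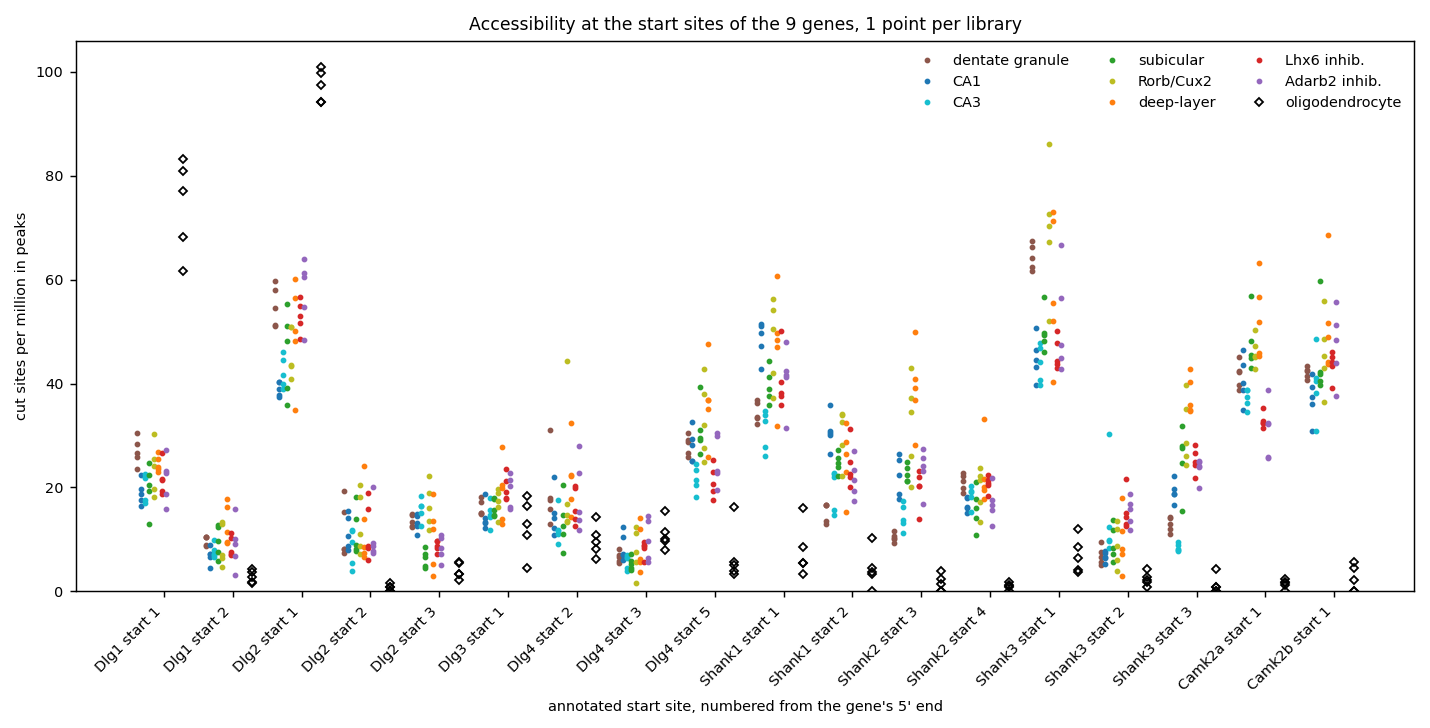
Cut-site CPM (vertical axis) at each annotated start with a peak in every library, in the 8 neuron subtypes (coloured points) and in oligodendrocyte-like nuclei (open diamonds), 1 point per library. On this scale the first starts of Dlg1 and Dlg2 are most open in oligodendrocyte-like nuclei, whereas the Camk2a and Camk2b starts are nearly closed there. Oligodendrocyte-like nuclei hold a larger share of their cut sites over annotated starts than the neurons do, and the values are not corrected for it.

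At the start with most cut sites, the subtype highest in RNA by its median over libraries was also the most accessible for Shank2 alone of the 9 genes. This match was narrow, with medians of 21.36 cut-site CPM in Rorb and Cux2 cortical-type and 21.29 in dentate granule-like neurons. Lhx6 lineage neurons were the most accessible at that start in 3 libraries. The subtype highest in RNA was second in accessibility for Dlg1 and Shank1 and lower in the order for the other 6. Among all genes compared, CA1-like neurons were most accessible for 0.543%, CA3-like neurons for 0.434% and deep-layer neurons for 36.5%. CA1-like or CA3-like neurons were highest in RNA for Dlg4, Shank1, Shank3 and Camk2a, so a match was unlikely for these in advance. For 0 of the 9 genes was the same subtype most accessible in all 5 libraries at that start, and such stability between libraries held for 3.55% of the 11057 genes compared. The median accessibility of the most open subtype exceeded that of the least open by 1.31 times for Camk2b to 1.78 times for Dlg4, while the corresponding RNA range reached 2.66 times for Camk2b and 3.33 times for Dlg1. Accessibility varied more than RNA for Dlg4 and Shank3 (1.59 and 1.54 times for Shank3), and RNA varied more for the other 7. Small subtypes had few cut sites at a start, such as 15 to 43 at the second Dlg1 start in deep-layer neurons, which limits this comparison.

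Genotypes were compared with log2 ratios of CPM with 5 added to each value, and a gene was called changed in a subtype past 1.3-fold (0.38 on the log2 scale) with at least 100 UMIs over both libraries. All 72 pairs of gene and subtype reached that count in all comparisons. With 1 library per group no test between genotypes is possible, and the intervals given are exact intervals of the ratio for counting error, so differences between mice are not covered by them. The question of the first comparison is what 5xFAD does to these genes. None of the 72 pairs was called, while 4.59% of all pairs of gene and subtype were. In this and the later comparisons, all pairs were not matched to the 9 genes in depth or gene length. A lower count among the 72 pairs therefore does not show that stability is particular to the 9 genes. Among nuclei with Xist alone, where 53 pairs could be measured, 4 were called, beside 8.5% of all pairs under that setting. The largest differences were Dlg4 in Adarb2 lineage neurons (0.34, from 52.5 to 67.9 CPM) and Dlg1 in CA1-like neurons (-0.30, from 230.8 to 186.2 CPM). In the excitatory class the 9 genes lay between -0.09 (Dlg2) and 0.09 (Dlg1), and no median of the 9 genes in a subtype lay outside -0.08 to 0.11. Levels of the class also move with the mix of its nuclei, and Rorb and Cux2 cortical-type neurons, the highest in Dlg1, numbered 108 nuclei in wild type and 246 in 5xFAD.

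Dlg2 was the one member with the same sign in all 8 subtypes in 5xFAD against wild type. It stood at 7765 and 7604 CPM in dentate granule-like, 8259 and 7660 in CA1-like, 8232 and 7793 in CA3-like and 8343 and 7606 in Rorb and Cux2 cortical-type neurons, wild type first. The differences ran from -0.13 to -0.02 with a median of -0.05, below the call, and 2.45% of 5344 genes were lower in all 8 subtypes. All subtypes measured kept the sign in 6 of the 10 alternative settings that could change one, of which Y-linked nuclei alone covered 2 subtypes and leaving out a dentate cluster touched the dentate value alone. Camk2a was higher in 7 of 8 subtypes (-0.19 in deep-layer neurons to 0.23 in Rorb and Cux2 cortical-type neurons) and Camk2b in 6 of 8 (-0.08 to 0.22).

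**Figure D3:**
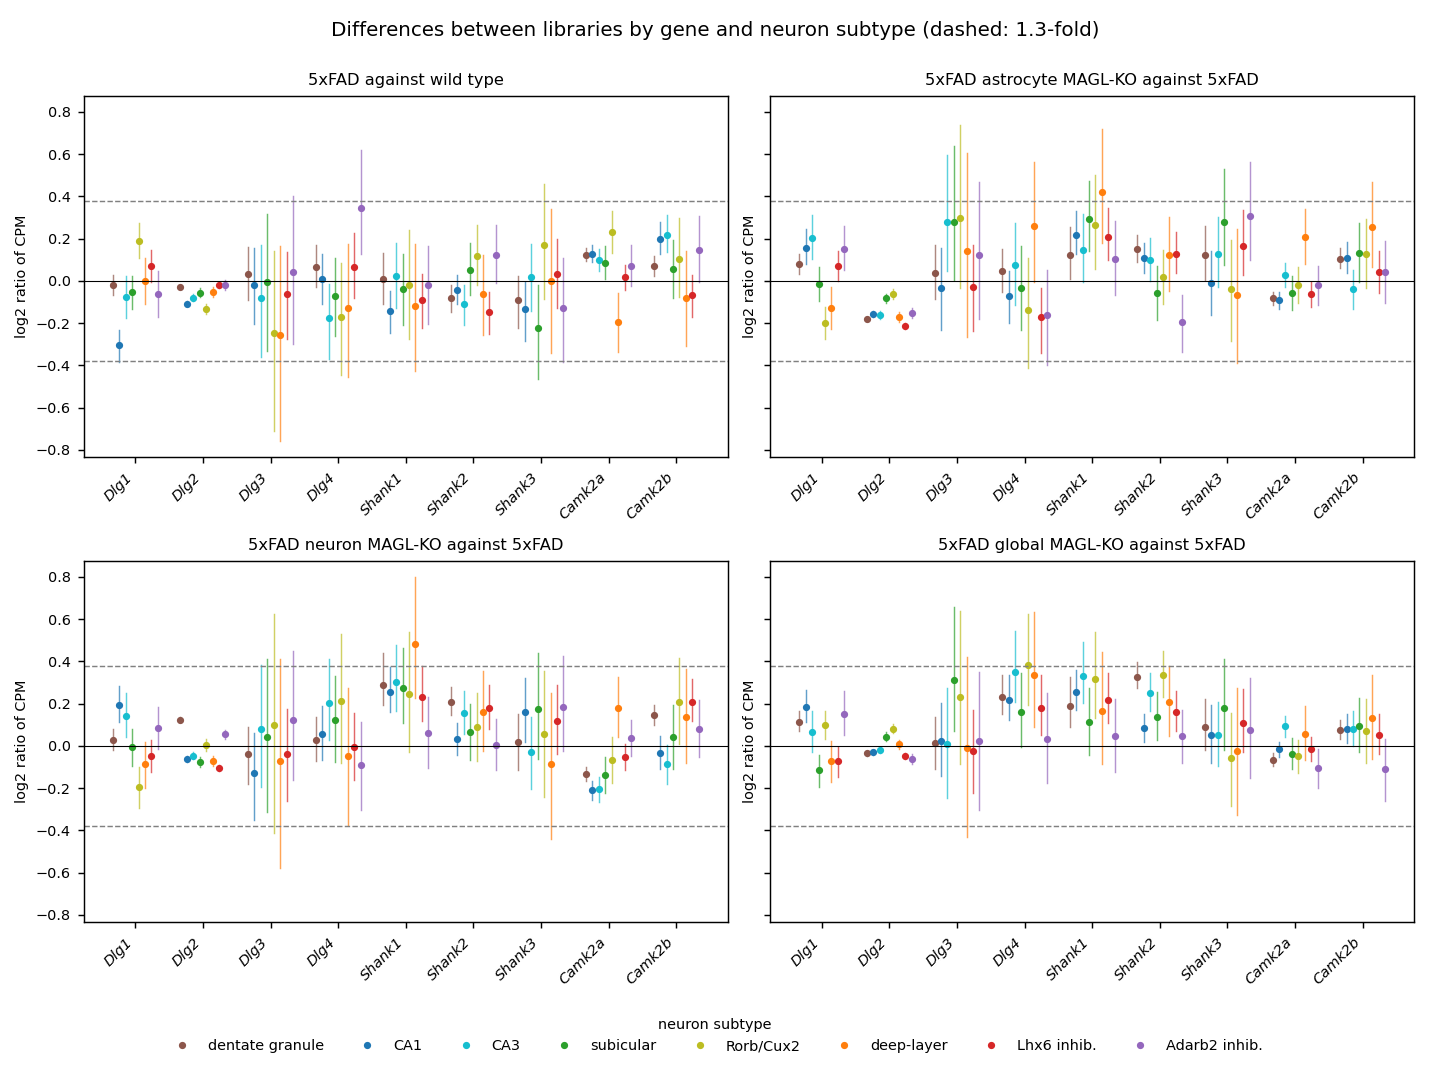
Log2 ratio of CPM (with 5 added, vertical axis) for each gene and neuron subtype (colours) in the 4 comparisons. Bars are exact 95% intervals of the ratio without the added value, for counting error only, and dashed lines mark 1.3-fold. Shank1 in deep-layer neurons passes the line in the astrocyte and the neuron comparison, and Dlg4 in Rorb and Cux2 cortical-type neurons in the global comparison.

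The other 3 comparisons set each library with a MAGL-KO label against the same 5xFAD library, so a deviation of that library enters all 3, and their values are given side by side. With nuclei of mixed sex signal left out, the number of called pairs went from 1 to 3 in the astrocyte, from 1 to 2 in the neuron and from 1 to 3 in the global comparison. Under that setting 17.6, 18.2 and 7.45% of all pairs were called. With the 9 genes kept in the clustering the counts were 3, 4 and 4 (18.8, 18.7 and 8.43% of all pairs). In Xist nuclei alone they were 4, 5 and 7 of 53 pairs (21.8, 21.7 and 13.9%). Under the main setting Shank1 was called in deep-layer neurons in 2 of the 3 comparisons. It stood there at 77.8, 71.3, 97.3, 101.7 and 80.7 CPM, from 195, 174, 348, 252 and 364 UMIs. The astrocyte-labelled and neuron-labelled libraries were highest, and their counting intervals (87.3 to 108.1 and 89.5 to 115.1 CPM) lay apart from that of 5xFAD (61.1 to 82.8) but overlapped with that of wild type at its upper end (67.3 to 89.5). The differences from 5xFAD were 0.42 (interval 0.18 to 0.72) and 0.48 (0.23 to 0.80), 1 of 72 pairs in each comparison, against 17.1% of all pairs in the first and 17.4% in the second. The global comparison gave 0.17. The first difference ran from 0.17 (Xist nuclei alone) to 0.50 over the alternatives, and it missed 1.3-fold also under size factors (0.37), without doublet removal (0.32), with a minimum of 1000 genes (0.32), with naming by marker score (0.30) and with the 9 genes kept in the clustering (0.34). The second missed it with Xist nuclei alone (0.35) and without doublet removal (0.37).

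Shank1 lay above 5xFAD in all 8 subtypes in each of the 3 libraries with a MAGL-KO label. In CA1-like neurons it was 117.4 CPM in 5xFAD and 137.5, 141.3 and 141.1 CPM in the 3 libraries. In CA3-like neurons it was 84.9 CPM in 5xFAD and 94.6, 106.1 and 108.0 CPM. The median differences over subtypes were 0.21, 0.27 and 0.20, and 25.4, 18.2 and 7.06% of all genes compared were higher in all 8 subtypes. All subtypes measured were higher in 10 of the same 10 settings in the neuron comparison, in 8 in the global and in 9 in the astrocyte comparison. The exception of the latter was size-factor scaling, which left 7 of 8 subtypes higher and a median of 0.08. In that scaling the median was 0.17 in the neuron and 0.19 in the global comparison. The median of all genes in excitatory neurons was 0.12 and 0.11 in the astrocyte and neuron comparisons and at 0.02 in the global one. Genes under 10 kb had medians of 0.18 and 0.18 and genes of at least 100 kb of -0.01 and -0.02, and Shank1 is 50.3 kb long. Relative to the median of all genes, Shank1 in excitatory neurons was 0.17 against 0.12 in the astrocyte, 0.25 against 0.11 in the neuron and 0.22 against 0.02 in the global comparison. Under size factors the first of these Shank1 values was -0.03, opposite in sign, and the other 2 are not given in that scaling. The median of the 9 genes in excitatory neurons went from 0.06, 0.04 and 0.05 to -0.14, -0.14 and 0.01 under size factors. All genes were not matched to Shank1 in level or length, so their median does not measure an excess of Shank1. Without the dentate cluster that was larger in these libraries, the dentate granule-like value, the one subtype value it can alter, was still higher in each of the 3. The values of the excitatory class include that cluster and are not given without it.

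In the global comparison, Dlg4 was called in Rorb and Cux2 cortical-type neurons. Its levels there were 74.8, 65.9, 59.4, 77.2 and 87.5 CPM, from 184, 326, 195, 124 and 389 UMIs. The global-labelled library was highest, the ranges of counting error of that and the wild-type library overlapped, and the difference from 5xFAD was 0.38 (interval 0.19 to 0.63), just past the call. It was 1 of 72 pairs, against 6.34% of all pairs. Differences just under the call in that comparison were Dlg4 in CA3-like (0.35) and deep-layer neurons (0.34) and Shank2 in Rorb and Cux2 cortical-type neurons (0.34). It missed 1.3-fold under size factors (0.37), without doublet removal (0.37), as a mean over nuclei (0.36), with naming by marker score (0.21) and, by a narrow margin, with a minimum of 1000 genes (0.38).

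In the same comparison Dlg4, Shank1 and Shank2 were each higher in all 8 subtypes, which held for 7.06% of 6363 genes. Dlg4 in CA1-like neurons was 89.2 CPM in 5xFAD and 104.4 CPM in the global-labelled library, and in dentate granule-like neurons 78.9 and 93.4 CPM. The median differences were 0.22 for Dlg4, 0.20 for Shank1 and 0.18 for Shank2, and in the excitatory class they were 0.25, 0.22 and 0.24. All subtypes measured kept the sign in 9 of these 10 settings for Dlg4 and in 8 of 10 for Shank2. In the astrocyte comparison Dlg4 was higher in 3 of 8 subtypes and Shank2 in 6 of 8, and in the neuron comparison in 5 of 8 and 8 of 8. Under size factors the Dlg4 counts were 1 and 3 of 8, and Shank2 in the astrocyte comparison was higher in 2 of 8, with a median of -0.04 in place of 0.10. The difference between these comparisons was not tested. The Shank2 count of 8 in the neuron comparison held for all subtypes measured in 7 of these 10 settings. It became 5 of 8 under size factors, 7 of 8 with a minimum of 1000 genes and 0 of 2 in Y-linked nuclei alone (median -0.04).

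Dlg2 was lower than in 5xFAD in all 8 subtypes in the astrocyte-labelled library, as were 4.67% of 6208 genes. The levels were 7604 and 6712 CPM in dentate granule-like, 7660 and 6872 in CA1-like and 10529 and 9344 in deep-layer neurons, 5xFAD first. The differences ran from -0.21 to -0.06 with a median of -0.16, and none was called. Under size factors they ran from -0.35 to -0.11 with a median of -0.27. All subtypes measured kept the sign in 7 of these 10 settings. In the neuron and the global comparison, Dlg2 was lower in 5 of 8 subtypes each, with medians of -0.05 and -0.02 (-0.14 and -0.07 under size factors). Camk2a had the opposite sign in deep-layer neurons to most subtypes: its differences there were 0.21, 0.18 and 0.06 in the 3 comparisons, while CA1-like neurons gave -0.09, -0.21 and -0.02. The deep-layer levels were 356.8, 311.2, 360.1, 353.1 and 324.3 CPM, so 5xFAD was the lowest library. Camk2b was higher in 7, 6 and 7 of 8 subtypes with medians of 0.11, 0.11 and 0.08, and in 3, 5 and 7 of 8 under size factors, with medians of -0.04, 0.03 and 0.03. Dlg1, Dlg3 and Shank3 had mixed signs under both scalings, and none was called.

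Other subunits of the same families had other subtype patterns. Dlg5 was highest in CA3-like neurons, at 62.9 to 78.6 CPM. Camk2d stood at 285.2, 241.2, 263.3, 238.5 and 320.2 CPM in Rorb and Cux2 cortical-type neurons and at no more than 78.3 CPM in the other excitatory subtypes. The Lhx6 and Adarb2 lineages held 114 to 173 CPM. Camk2g was lowest in CA3-like neurons, at 19.3 to 44.7 CPM, and reached 88.0 to 122 CPM in deep-layer and 90.7 to 120 CPM in dentate granule-like neurons.

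The partners of the 9 genes were summarised over a list of 68 postsynaptic scaffolds, adaptors, kinases, phosphatases and calmodulin partners in excitatory neurons. In 5xFAD against wild type 0 of the 67 measured were called, with a median of 0.00, and 0.958% of all genes were called. The extremes were Actn2, an actinin of dendritic spines, at -0.16 and Homer2 at 0.18. In the astrocyte comparison 4 of 68 were called higher and 2 lower (median 0.04, beside 0.12 for all genes), where 7.86% of all genes were called higher and 0.732% lower. In the neuron comparison 1 was called higher and 2 lower (median 0.05, beside 0.11), where 8.37 and 1.41% were called. In the global comparison 0 were called higher and 1 lower (median 0.01, beside 0.02), where 1.44 and 0.677% were called. Under size factors the 3 partner medians were negative, at -0.15, -0.11 and -0.03, beside 0.00, 0.00 and -0.01 for all genes. All genes were not matched to the partners in length or level. Genes of at least 100 kb had CPM medians of -0.01, -0.02 and 0.03 in the 3 comparisons, and a difference particular to the partners was not tested. In that scaling 0 partners were called higher and 3 lower in the astrocyte comparison, where 2.9% of all genes were called higher and 3.15% lower. In the neuron comparison 0 were called higher and 6 lower (Homer1, Lin7a, Cnksr2, Camk4, Homer2 and Arc, named after their values were seen), where 4.02 and 3.68% of all genes were called. A list of 8 proteins of the inhibitory postsynapse, measured as a contrast, had 0, 0, 1 and 0 called, and the 1 was Insyn1 (0.41) in the neuron comparison.

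Homer1, the scaffold that links Shank to group I metabotropic glutamate receptors and whose short form is an immediate early gene product, was the lowest partner in each of these 3 comparisons. In excitatory neurons it stood at 521.5, 533.0, 281.1, 305.4 and 392.2 CPM, and the 3 libraries with a MAGL-KO label were below both others. The differences from 5xFAD were -0.91, -0.79 and -0.44, larger in size than those of any of the 9 genes in that class. With the dentate cluster that was larger in these libraries left out, 0 of 68 partners were called lower in the global comparison. Homer1 thus missed 1.3-fold there. In that setting 1 partner was called higher, and 1.5 and 0.591% of all genes were called higher and lower. Homer1 was lower in 8 of 8 subtypes in all 3 comparisons and past 1.3-fold in 8, 7 and 6 of them. Deep-layer neurons showed the largest fall, from 1062 CPM in 5xFAD to 349, 437 and 415 CPM. Nrgn, neurogranin, a calmodulin-binding protein of spines, was the highest partner in the astrocyte and neuron comparisons, at 103.9, 103.6, 146.2, 138.1 and 101.1 CPM in excitatory neurons (0.48 and 0.40, and -0.03 in the global comparison). Under size factors 0 partners were called higher in both, where 2.9 and 4.02% of all genes were. With the dentate cluster left out, 0 were called higher in the neuron comparison, where 8.07% of all genes were. By subtype, Nrgn was higher in 8 of 8 in the astrocyte comparison (6 past 1.3-fold, median 0.49). It was higher in 7 of 8 in the neuron comparison (5 past 1.3-fold, median 0.47). In the global comparison it was higher in 4 and lower in 4, with 0 past 1.3-fold.

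**Figure D4:**
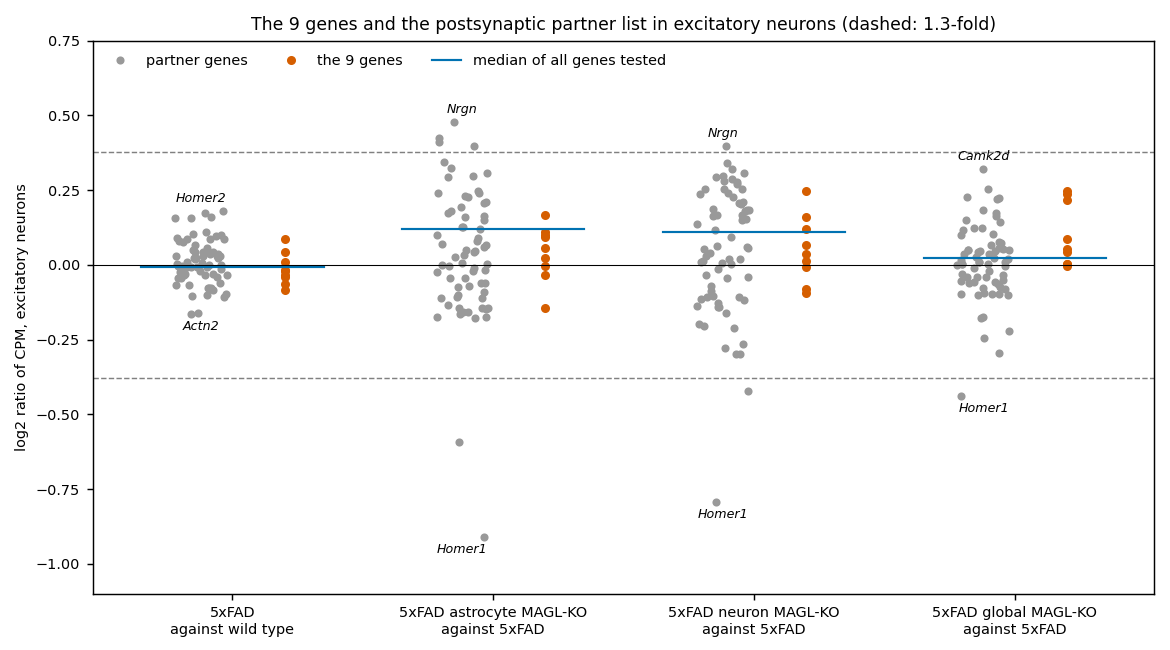
Log2 ratio of CPM (with 5 added, vertical axis) in excitatory neurons for the partner genes (grey) and the 9 genes (orange) in the 4 comparisons, 1 point per gene, with the median of all genes tested as a blue line and 1.3-fold as dashed lines. Homer1 is the lowest point in each comparison with 5xFAD as the reference, at -0.91, -0.79 and -0.44, and most partners lie between the lines.

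The genes whose levels followed each member most closely were found by Pearson correlation of log2 CPM (with 5 added) over 40 points, 8 subtypes in each of 5 libraries. Points of a library share its depth and preparation and points of a subtype share its cells, so the values describe likeness of pattern and carry no test. Camk2b was most like Kcnj6 (0.96), Ppp3ca (0.94) and Eml5 (0.93), and Camk2a most like Wasf1 (0.95), Nell2 (0.94) and Grin2a (0.94). Dlg1 was most like Ptprd (0.95), Sept11 (0.91) and Arhgap10 (0.91). Shank1 was most like Zfp462 (0.91), Tmem200a (0.90) and Sh3rf1 (0.88), Shank2 like Nsun2 (0.85), Actn1 (0.81) and Ywhaz (0.77), and Shank3 like Aopep (0.87), Bicc1 (0.80) and Cabp1 (0.79). The lowest likeness to a nearest gene belonged to Dlg4 (Tub 0.81, Celf5 0.80 and Lrrc7 0.78) and Dlg2 (Kcnmb4 0.81, Ano3 0.81 and Inpp4a 0.78), and Dlg3 stood at 0.87 with Tmem131, 0.87 with Fyco1 and 0.86 with Tsga10. Among the members themselves the closest pair was Camk2a and Camk2b (0.87), then Dlg3 and Camk2b (0.69) and Shank2 and Camk2a (0.62). The most opposed pair was Dlg3 and Shank3 (-0.51).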

How the data were processed

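Per the labels' protocols, nuclei were released by Dounce lysis, cleaned on iodixanol and made into 10x Multiome libraries. The values deposited by the authors are counts: UMIs per gene and transposase cut sites per peak for each nucleus. The submitters' processing notes name Cell Ranger ARC 2.0.0, Seurat and mm10. The gene annotation and whether replicates or animals were pooled are not given in the sources used here. Coordinates of genes and starts come from GENCODE vM21 on the mm10 build. Matrices hold several reads of a molecule as 1 UMI, and the nuclear RNA includes introns, which raises long genes.

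Nuclei needed at least 500 genes and no more than 5% mitochondrial UMIs, and the highest Scrublet scores were removed at 0.8% per 1000 nuclei. Clustering used scanpy 1.11.5 (2000 variable genes without the 9 members, 40 components, 15 neighbours, Leiden resolution 1). Clusters were named from marker genes, and a cluster with mixed markers, or with many nuclei holding UMIs of both sexes, stayed unnamed and was used in no subtype. UMIs were summed per library and subtype, or over all excitatory-like nuclei including those in no named subtype, and divided by the total of the same nuclei. Ratios used CPM with 5 added, a minimum of 100 UMIs over both libraries and a fold of 1.3, a rule of size and not a test. The ratio step was run on simulated Poisson counts with known fold changes. These counts hold no variation between mice, so the run does not show how reliable calls between single libraries are. Accessibility was summed in peaks within 1 kb of annotated starts, with starts less than 1 kb apart grouped. The text names the 9 members, the highest and lowest genes of the partner list and, of the inhibitory list, the called gene Insyn1 alone. Camk2d (0.32) was the highest partner in the global comparison. For each member, the 3 genes most alike among those of at least 50 CPM are named. Dlg5, Camk2d and Camk2g are named as the other genes of the same families, and the results of Homer1 and Nrgn by subtype were added after they were seen. The members and lists were chosen with earlier results of these data known. Alternatives changed scaling, doublet removal, the gene minimum, subtype naming, the clustering genes, averaging, the pseudocount, filter, fold, sex of the nuclei and the window. Promoter sequences come from the RefSeq table on GRCm38.p6, which matched 6 of the 9 genes. No sequence is given for Shank1, Shank2 and Camk2a.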

Additional observations from a re-analysis of the deposited data

How the results depend on the processing

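Each comparison rests on 1 library per genotype, so leaving out a replicate was not possible, and depth limits the small subtypes, where a gene had as few as 44 UMIs. No paired analysis was possible because a single library stands for every genotype. In order astrocyte, neuron and global MAGL-KO against 5xFAD, 1, 1 and 1 of 72 pairs of gene and subtype were called, and the share of all pairs called under the same setting follows each count here. Size factors gave 0, 1 and 0 (13.6, 14.8 and 6.19%), no doublet removal 1, 1 and 0 (17.4, 17.5 and 6.68%), a minimum of 1000 genes 0, 1 and 0 (16.8, 16.9 and 5.96%), naming by marker score 1, 1 and 0 (15.8, 15.5 and 4.81%), and a fold of 1.5 gave 0, 0 and 0 (5.38, 5.92 and 1.91%). Equal counts did not always mean the same pairs: without doublet removal the calls were Dlg3 in CA3-like (0.39) and Dlg1 in Rorb and Cux2 cortical-type neurons (-0.46), marker-score naming gave Dlg3 in subicular-like neurons (0.42) in the astrocyte comparison, and the mean over nuclei gave Dlg4 in Lhx6 lineage neurons (0.44) in the global one. Clustering with the 9 genes kept gave 3, 4 and 4 (18.8, 18.7 and 8.43%) and the mean over nuclei 2, 2 and 1 (19.4, 20.8 and 8.68%). Leaving out nuclei with UMIs of both sexes, an alternative chosen after seeing the data, gave 3, 2 and 3 (17.6, 18.2 and 7.45%). Leaving out the dentate cluster was not planned either, and both are among the 10 settings used for signs. Xist nuclei alone gave 4 in 5xFAD against wild type (8.5%) and 4, 5 and 7 in the others (21.8, 21.7 and 13.9%), over 53 pairs in 6 subtypes. Y-linked nuclei alone gave 1 (4.44%) and 0, 0 and 0 (14.5, 16.9 and 4.18%), over 18 pairs in 2 subtypes. For the partner genes the counts were 0 against wild type, then 6, 3 and 1, with 8.59, 9.78 and 2.12% of all genes called in the latter. Size factors gave 3, 6 and 1 (6.05, 7.69 and 2.09%), a pseudocount of 1 gave 10, 6 and 2 (24.7, 24.3 and 5.7%) and a fold of 1.5 gave 2, 1 and 0 (2.12, 2.68 and 0.573%). Xist nuclei gave 8, 6 and 4 (13.7, 12.9 and 4.75%), and Y-linked nuclei gave 1 against wild type (1.46%) and 6, 4 and 0 (9.74, 11 and 1.8%). Scaling accessibility to promoter peaks gave 1 gene, Shank1, with the same most accessible subtype in all libraries in place of 0. The number of genes with the same highest subtype in all 5 libraries was 5 to 7 over all settings run. The cause of these shifts was not tested, apart from fewer subtypes in the sexed subsets. Of all recomputed counts, 77 stayed within 1.5 times the reported one and 38 did not. Of the recomputed single values, 342 stayed within their counting interval and 86 did not.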
